A study of Homo sapiens with 4 samples.

Results

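The SLC25 family of mitochondrial solute carriers was read out of the deposited FPKM table as every line whose gene symbol was SLC25A followed only by digits. This gave 48 genes of the 57979 lines that held values, and 40 of the 13246 genes with a mean above 1 FPKM. FPKM is a fragment count divided by the length of the transcript and by the total of the library. RNA came from cells labelled HepG2, an established human liver cancer line, and 4 libraries were compared. The 2 wild-type libraries (WT, replicates 1 and 2) and the 2 knockout libraries (TXNDC9-KO, replicates 1 and 2) differed in genotype, and all cells were grown in DMEM with serum. TXNDC9, a thioredoxin-domain protein, was targeted with CRISPR-Cas9 from a lentiviral lentiCRISPRv2 vector with guides against the gene. For its immunoblots the study describes a sorted population of infected cells beside a control with the empty vector, but whether the sequenced cells were these, and which guide they carried, was not given in the sources used here. Its legends call RNA-seq values independent experiments but give a number other than the libraries here, so what the replicates were is uncertain and the p-values below measure the spread between these libraries, which may be technical.

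SLC25 proteins are encoded in the nucleus and most of them sit in the mitochondrial inner membrane, where they exchange nucleotides, phosphate, organic acids, amino acids and cofactors between the cytosol and the matrix. Their fold is built from repeats of a pair of membrane helices, and each member has its own range of substrates. The ADP/ATP carriers and the phosphate carrier supply the ATP synthase, while the malate, aspartate, citrate and glutamate carriers link the metabolism of the matrix to that of the cytosol. The liver is known for its use of these carriers in the urea cycle, in gluconeogenesis and in lipid synthesis.

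The label of the cells was compared with marker genes before the results were read. Of 9 hepatocyte markers, none had a mean above 1 FPKM, the highest value in any library was 0.449 FPKM for AFP, and APOA1 was listed at 0 in all 4. Their summed level was 0.446 and 0.733 FPKM in WT and 0.0479 and 0.174 FPKM in TXNDC9-KO, so the transcripts that define the labelled line were at or near 0 in all 4 libraries, and "cells labelled HepG2" is kept as a name only. Fibroblast and stellate cell markers summed to 58.3 and 54.4 FPKM in WT and 41.8 and 38.2 FPKM in TXNDC9-KO, with COL1A2 listed at 0. Of these 7 markers 5 were tested, and PDGFRB was called higher. The other 4 were not called and had negative log2 fold changes: COL3A1 (−0.70), COL1A1 (−0.49), DCN (−0.39) and ACTA2 (−0.29). Endothelial markers summed to 0.810 and 1.23 FPKM in WT and 4.43 and 3.46 FPKM in TXNDC9-KO, with KDR listed at 0. Most of each sum was CDH5, the 1 marker of 5 that was tested. It was called higher, at 0.751 and 1.07 FPKM in WT and 4.26 and 3.14 FPKM in TXNDC9-KO. Leukocyte markers summed to between 4.13 and 7.53 FPKM, mostly CD68, with CD3E listed at 0. CD68 was the 1 marker of 6 that was tested, and it was not called, at a log2 fold change of 0.58. The part of these markers in the results on SLC25 genes was not tested, and in bulk RNA fewer cells of a type and less RNA per cell cannot be told apart. All 13 protein genes of the mitochondrial DNA were listed at 0 in the 4 libraries, so a value of exactly 0 in this table may not mean that a transcript was absent. TXNDC9 itself was measured at 35.1 and 37.3 FPKM in WT and at 21.9 and 27.6 FPKM in TXNDC9-KO. This was a log2 fold change of −0.55 (adjusted p = 0.0145 in limma with Benjamini-Hochberg adjustment, standard error 0.14), which was not under 0.01, and it became 0.12 when each library was rescaled to the same sum (TPM).

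DNA in front of the start sites is shown first, because the study asked about MYC, a transcription factor that binds the E-box. Promoter windows were taken from RefSeq on GRCh38.p14 and ran from 250 bases before to 50 bases after a start site, and 50 windows covered 40 of the 48 members. The E-box (CACGTG) reads the same on both strands, as does the core of the NRF1 motif (TGCGCA), and the motifs do not overlap each other. The E-box was present in a window of 9 of the 40 members and of 8 of the 34 tested ones (23.5%), against 8.77% of all 27305 genes and 13.1% of the 9007 genes tested. With only the first listed window of each gene, the count was 6 of 34, against 10.6% of the genes tested, and the count over any window was chosen after these values were seen. The NRF1 core was present in 3 of the 34 (8.82%), against 16.6% of the genes tested. A match is a description of the letters and not of a bound site. SLC25A36 was called higher and SLC25A22 lower in TXNDC9-KO, and the other 6 tested members with an E-box were not called. For SLC25A22 the E-box lay in only 1 of its listed windows, not the first, at a start site inside the annotated gene. SLC25A16 and SLC25A30, both called higher, had no window and were not searched. The motif was thus found beside 1 called gene in each direction, among the members searched. The sequences below give that E-box in capitals with its neighbouring bases, for the tested members that carry one, with the coordinates of each in turn.

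SLC25A36 (called higher, plus strand, chr3:140941681-140941710): gcccgtagggatCACGTGaaagaacactgc
SLC25A22 (called lower, minus strand, chr11:795418-795447): ctggctggggtgCACGTGagccccgagcgt
SLC25A46 (plus strand, chr5:110738948-110738977): agaggctataatCACGTGctccgaagactt
SLC25A13 (minus strand, chr7:96322235-96322264): gcgcagcggggtCACGTGtccctgtccagc
SLC25A38 (plus strand, chr3:39383314-39383343): tcagaacaccctCACGTGacaagcgtccca
SLC25A26 (plus strand, chr3:66220939-66220968): tgtctcgcgttgCACGTGcagttgttgtgg
SLC25A26 (plus strand, chr3:66220965-66220994): gtggttctacgtCACGTGgtcccggaagtt
SLC25A33 (plus strand, chr1:9539427-9539456): tccggcccccgcCACGTGacggccgcgcgc
SLC25A51 (minus strand, chr9:37904169-37904198): cggtgtctccctCACGTGaccccaacagcg

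The 250 bases in front of the start sites of SLC25A36 and SLC25A40, the members with the largest rises, are given whole to show how they differ. That of SLC25A36 (GRCh38.p14, plus strand, chr3:140941586-140941835) has 62.8% GC and 23 CpG dinucleotides, and its E-box is in capitals. That of SLC25A40 (minus strand, chr7:87876361-87876610) has 72.8% GC, 42 CpG dinucleotides and neither motif. Their canonical transcripts had 37.1% and 34.3% GC, below the upstream bases in both.

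SLC25A36: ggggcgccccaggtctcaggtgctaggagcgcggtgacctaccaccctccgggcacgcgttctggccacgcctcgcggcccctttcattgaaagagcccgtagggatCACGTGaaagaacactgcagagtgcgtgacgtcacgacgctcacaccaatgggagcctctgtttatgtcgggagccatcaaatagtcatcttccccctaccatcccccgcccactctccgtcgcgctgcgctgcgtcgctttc
SLC25A40: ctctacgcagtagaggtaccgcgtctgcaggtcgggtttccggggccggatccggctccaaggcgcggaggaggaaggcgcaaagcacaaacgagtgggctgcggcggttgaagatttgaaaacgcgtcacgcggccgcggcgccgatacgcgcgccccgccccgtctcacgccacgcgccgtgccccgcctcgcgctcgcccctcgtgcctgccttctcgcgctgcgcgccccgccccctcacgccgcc

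Across the family, 5 of the 40 tested members fell in TXNDC9-KO and 5 rose, while 30 were not called. A call required an adjusted p under 0.01 in limma on log2(FPKM + 0.1) and a fold change of at least 2. SLC25A39, SLC25A10, SLC25A28, SLC25A11 and SLC25A22 were lower, and SLC25A36, SLC25A40, SLC25A24, SLC25A16 and SLC25A30 were higher. Gene positions below are those of GENCODE release 44 on GRCh38 (hg38). The shares of 12.5% in each direction stood beside 15.3% of all 13246 genes called lower and 14.2% called higher, so the share of SLC25 genes called was near that of all genes. In either direction 10 members (25%) were called, against 29.5% of all genes. The groups by substrate below have 2 to 8 tested members each, so their counts of calls are descriptions only. At an adjusted p under 0.01 and any fold, 12 members were lower and 8 higher, where 27.1% and 23.7% of all genes were. Both knockout values lay below both wild-type values for 17 members and above them for 15, with overlap in the other 8, against 45.9% and 40.1% of all genes. The median log2 fold change was −0.02 over the 40 members and −0.09 over all genes tested. Without knockout replicate 1 or without knockout replicate 2, limma called 0 members and 0 of all 13246 genes in either direction, the spread then coming from the wild-type pair alone. At an unadjusted p under 0.05 there were 21 and 20 members in these fits, beside 53.8% and 55.2% of all genes. Without wild-type replicate 1 it called 7 lower and 6 higher, adding SLC25A20 (−1.10), SLC25A6 (−1.03) and SLC25A15 (1.12), and without wild-type replicate 2, 4 and 4, losing SLC25A22 and SLC25A30. Of all genes, 19.9% were then called lower and 16.1% higher without wild-type replicate 1, and 11.8% and 14% without wild-type replicate 2.

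**Figure D1:**
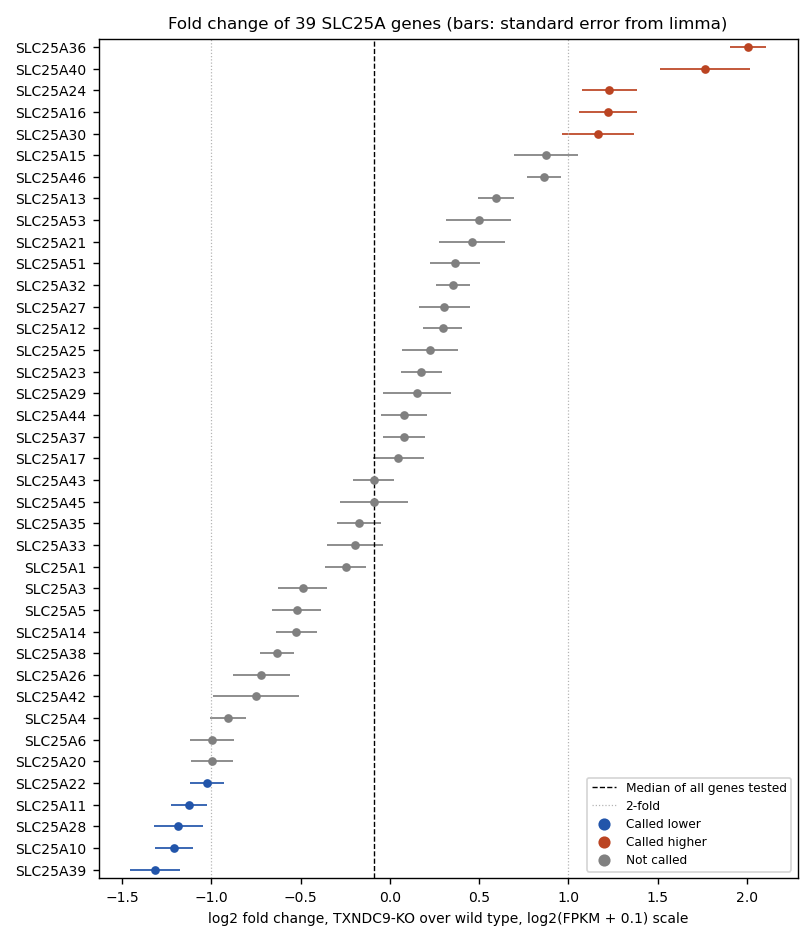
Log2 fold change of TXNDC9-KO over wild type on the log2(FPKM + 0.1) scale (x axis) for 39 of the 40 SLC25A genes tested (y axis, ordered by value), with limma standard errors as bars and called genes in colour. The points run from −1.31 for SLC25A39 to 2.01 for SLC25A36, with 19 genes below 0 and 20 above.

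SLC25A5, SLC25A3, SLC25A39, SLC25A6, SLC25A1, SLC25A11 and SLC25A10 had means above 100 FPKM over the 4 libraries, 20 members lay between 10 and 100 FPKM, and 13 between 1 and 10 FPKM. All of the 7 highest members had a lower mean in TXNDC9-KO, and 3 of them were called, but after rescaling to TPM the fold changes of SLC25A5, SLC25A3 and SLC25A1 were positive. The FPKM values of all SLC25A genes summed to 3165 and 3350 in WT and to 2136 and 2210 in TXNDC9-KO. As a share of the summed FPKM of each library, these were 0.393% and 0.345% in WT and 0.399% and 0.389% in TXNDC9-KO, and the groups overlapped. The 5 highest members (SLC25A5, SLC25A3, SLC25A39, SLC25A6 and SLC25A1) held 73.5% and 74.0% of the family sum in WT and 67.0% and 67.7% in TXNDC9-KO.

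**Figure D2:**
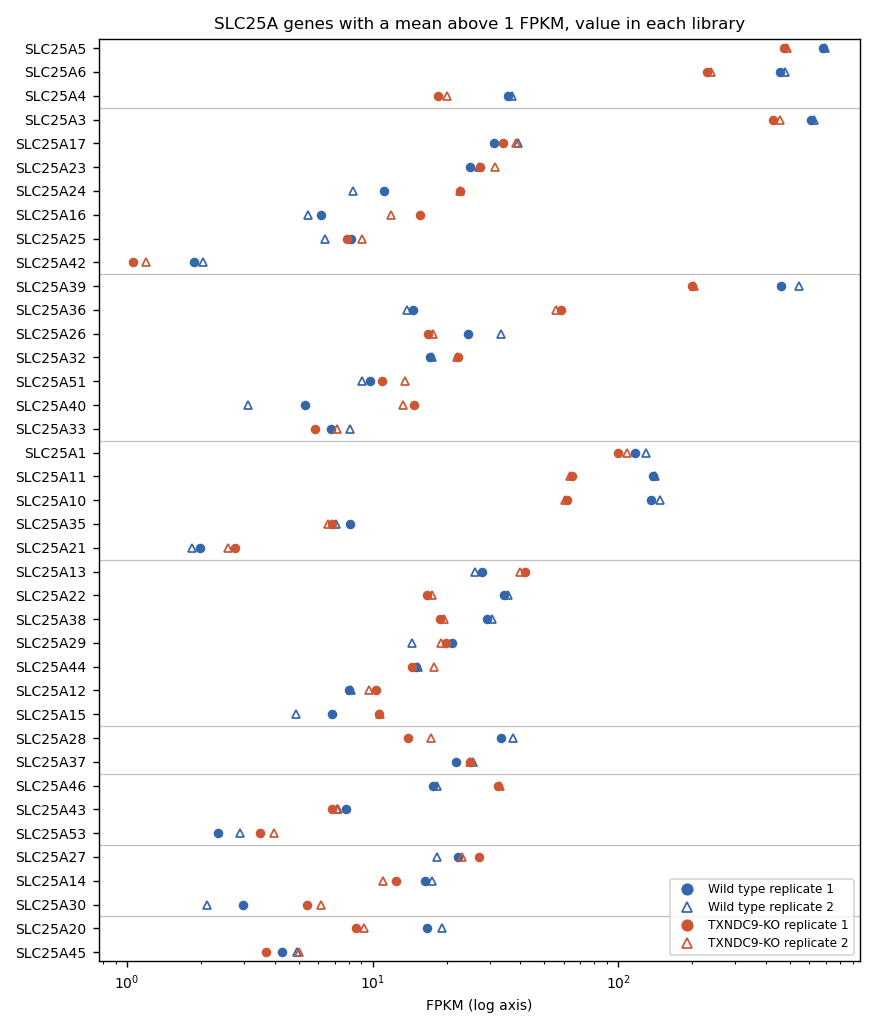
FPKM (x axis, log scale) in each of the 4 libraries for 39 of the 40 tested SLC25A genes (y axis), grouped by substrate. Filled circles are replicate 1 and open triangles replicate 2, in blue for wild type and orange for TXNDC9-KO. SLC25A5 at 475 to 697 FPKM and SLC25A3 at 427 to 629 FPKM stand at the top, and the orange points of SLC25A36 lie clear of the blue ones.

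Among the 4 ADP/ATP carriers, which exchange cytosolic ADP for matrix ATP, none was called. SLC25A5 (ANT2), the isoform of proliferating cells, was measured at 684 and 697 FPKM in WT and at 475 and 487 FPKM in TXNDC9-KO, with a log2 fold change of −0.52 (standard error 0.14, adjusted p = 0.0166 in limma with Benjamini-Hochberg adjustment), and 0.16 after rescaling to TPM. With the replicate number as a block its adjusted p was 0.00824 in limma, still under 2-fold. SLC25A6 (ANT3) was at 455 and 479.5 FPKM in WT and at 229.5 and 239.5 FPKM in TXNDC9-KO, a log2 fold change of −0.99 that passed the adjusted p (0.00126 in limma) and stopped just short of 2-fold. All of its annotated sequence in runs of 50 bases also occurred in another annotated gene, because the pseudoautosomal copies are identical, so its reads could have been split. SLC25A4 (ANT1), the isoform of heart and muscle, was at 35.7 and 36.8 FPKM in WT and at 18.4 and 20.2 FPKM in TXNDC9-KO, a log2 fold change of −0.91 (standard error 0.10, adjusted p = 0.000963 in limma). Both knockout values lay below both wild-type values for each of these isoforms, as they did for 45.9% of all genes tested. SLC25A31 (ANT4), the germ cell isoform, was listed at 0 in every library. Within the summed ADP/ATP carrier FPKM of 1175 and 1213 in WT and 723 and 747 in TXNDC9-KO, SLC25A5 held 58.2% and 57.4% in WT and 65.7% and 65.2% in TXNDC9-KO. The share of SLC25A6 was 38.7% and 39.5% in WT and 31.8% and 32.1% in TXNDC9-KO. That of SLC25A4 was 3.04% and 3.03% against 2.55% and 2.70%. The groups were apart in each share, but the shares are parts of 1 sum and not separate results, and no background was computed. With the correction for length and GC content given below, the log2 ratio to SLC25A5 differed between genotypes by 0.04 for SLC25A6 and −1.19 for SLC25A4.

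Of the 7 tested carriers of phosphate, ATP-Mg/phosphate and coenzyme A, SLC25A24 and SLC25A16 rose and 5 were not called. SLC25A24 (ENSG00000085491, chr1:108134043-108200849, minus strand), an ATP-Mg/phosphate carrier regulated by calcium, was measured at 11.1 and 8.36 FPKM in WT and at 22.7 and 22.7 FPKM in TXNDC9-KO, means of 9.73 ± 1.95 and 22.7 ± 0.0600 FPKM (SD, n = 2). The knockout values were close together and clear of the wild-type values, for a log2 fold change of 1.23 (standard error 0.15, adjusted p = 0.00128 in limma with Benjamini-Hochberg adjustment). SLC25A16 (ENSG00000122912, chr10:68477998-68527523, minus strand), a member linked to coenzyme A in the matrix, was at 6.17 and 5.46 FPKM in WT and at 15.7 and 11.9 FPKM in TXNDC9-KO, means of 5.82 ± 0.498 and 13.8 ± 2.65 FPKM (SD, n = 2). It changed by 1.22 on the log2 scale (standard error 0.16, adjusted p = 0.00155 in limma), with the wider spread in the knockout pair. The phosphate carrier SLC25A3, which brings in the phosphate that the ATP synthase uses, was at 609.8 and 629 FPKM in WT and at 427 and 457 FPKM in TXNDC9-KO, with a log2 fold change of −0.49 and an adjusted p of 0.0213 in limma. SLC25A23 and SLC25A25, the other calcium-regulated ATP-Mg/phosphate carriers, had log2 fold changes of 0.18 and 0.22. SLC25A17, a carrier of the peroxisome, was at 31.2 and 39.0 FPKM in WT and at 34.1 and 38.2 FPKM in TXNDC9-KO, and its groups overlapped. The coenzyme A carrier SLC25A42 was low, at 1.87 and 2.05 FPKM in WT and 1.06 and 1.19 FPKM in TXNDC9-KO, with a log2 fold change of −0.75 and an adjusted p of 0.0345 in limma. SLC25A41 stayed under 1 FPKM, at 0.359 and 0.369 FPKM in WT and at 0.180 and 0.235 FPKM in TXNDC9-KO, and was not tested.

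Of 5 tested di- and tricarboxylate carriers, 2 were called lower, where 15.3% of all genes were, and 5 genes are too few to compare these shares. SLC25A10 (ENSG00000183048, chr17:81712236-81721016, plus strand), which exchanges malate or succinate for phosphate, was measured at 136 and 148 FPKM in WT and at 62.0 and 60.6 FPKM in TXNDC9-KO, means of 142 ± 8.39 and 61.3 ± 1.05 FPKM (SD, n = 2). The groups were far apart, at −1.21 on the log2 scale (standard error 0.11, adjusted p = 0.000601 in limma with Benjamini-Hochberg adjustment). SLC25A11 (ENSG00000108528, chr17:4937130-4940053, minus strand), the malate and 2-oxoglutarate exchanger of the malate-aspartate shuttle, was at 138 and 142 FPKM in WT and at 64.7 and 63.5 FPKM in TXNDC9-KO, means of 140.0 ± 2.37 and 64.1 ± 0.848 FPKM (SD, n = 2). It changed by −1.13 on the log2 scale (standard error 0.10, adjusted p = 0.000611 in limma). After the correction for length and GC content given below, SLC25A10 and SLC25A11 were at −0.26 and −0.37. Rescaled to TPM they were at −0.53 and −0.45, and neither was called in either treatment. The citrate carrier SLC25A1, which exports citrate for lipid synthesis, was at 117 and 130.0 FPKM in WT and at 100.2 and 108 FPKM in TXNDC9-KO, with a log2 fold change of −0.25 that did not pass (adjusted p = 0.106 in limma). SLC25A35 and SLC25A21, the oxodicarboxylate carrier, had log2 fold changes of −0.17 and 0.46 and were not called. SLC25A34 was under 1 FPKM in all libraries, at 0.566 and 0.149 FPKM in WT and at 0.417 and 0.0785 FPKM in TXNDC9-KO. Of SLC25A10's annotated transcript, 62.0% in runs of 50 bases also lay in another annotated protein-coding gene on the same strand, so its value is uncertain.

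Amino acid carriers gave 1 call among 7 tested members. SLC25A22 (ENSG00000177542, chr11:790475-798281, minus strand), a mitochondrial glutamate carrier, fell from 34.3 and 35.5 FPKM in WT to 16.7 and 17.5 FPKM in TXNDC9-KO, means of 34.9 ± 0.807 and 17.1 ± 0.558 FPKM (SD, n = 2). At −1.02 on the log2 scale (standard error 0.10, adjusted p = 0.000666 in limma with Benjamini-Hochberg adjustment), it stood just past the 2-fold threshold. Without wild-type replicate 2 its log2 fold change was −0.999, and with a pseudocount of 1 it was −0.99, both short of it. SLC25A38, which imports glycine for heme synthesis, was at 29.2 and 30.5 FPKM in WT and at 18.9 and 19.6 FPKM in TXNDC9-KO, passing the adjusted p (0.00243 in limma) but not 2-fold. Both aspartate-glutamate carriers were higher in TXNDC9-KO by sign, SLC25A13 (citrin) with a log2 fold change of 0.59 (adjusted p = 0.00338 in limma) and SLC25A12 (aralar) with 0.30 (adjusted p = 0.0504 in limma). SLC25A13, the form best known from liver, was at 27.9 and 26.1 FPKM in WT and at 41.6 and 39.9 FPKM in TXNDC9-KO. The ornithine carrier SLC25A15 of the urea cycle was at 6.86 and 4.86 FPKM in WT and at 10.6 and 10.7 FPKM in TXNDC9-KO, with a log2 fold change of 0.87 (adjusted p = 0.00692 in limma). The basic amino acid carrier SLC25A29 and the branched-chain amino acid carrier SLC25A44 had log2 fold changes of 0.15 and 0.08 with overlapping groups. SLC25A18, a second glutamate carrier, was under 1 FPKM at 0.251 and 0.348 FPKM in WT and 0.235 and 0.229 FPKM in TXNDC9-KO, and SLC25A2, a second ornithine carrier, was listed at 0.

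The cofactor, nucleotide and glutathione carriers held the largest changes in both directions, with 1 fall and 2 rises among 8 tested members. SLC25A39 (ENSG00000013306, chr17:44319625-44324870, minus strand), which is required for glutathione import into mitochondria, was measured at 461 and 545 FPKM in WT and at 199 and 204 FPKM in TXNDC9-KO, means of 503 ± 59.0 and 202 ± 3.44 FPKM (SD, n = 2). It changed by −1.31 on the log2 scale (standard error 0.14, adjusted p = 0.00083 in limma with Benjamini-Hochberg adjustment). SLC25A40 (ENSG00000075303, chr7:87833568-87876360, minus strand), its close paralog, moved the other way, from 5.30 and 3.10 FPKM in WT to 14.7 and 13.3 FPKM in TXNDC9-KO, means of 4.20 ± 1.56 and 14.0 ± 0.984 FPKM (SD, n = 2). It was called at 1.76 on the log2 scale (standard error 0.25, adjusted p = 0.0019 in limma), with the wider SD in the wild-type pair, and an adjusted p of 0.0131 when limma was fitted without the filter on low values ended the call. Exons of SLC25A40 overlap those of DBF4 on the opposite strand, and the use of strand in counting was not given in the sources used here. SLC25A36 (ENSG00000114120, chr3:140941830-140980995, plus strand), a pyrimidine nucleotide carrier, was at 14.6 and 13.8 FPKM in WT and at 58.5 and 55.8 FPKM in TXNDC9-KO, means of 14.2 ± 0.567 and 57.1 ± 1.89 FPKM (SD, n = 2). This was the largest fold change of the family, 4.02-fold, with a log2 value of 2.01 (standard error 0.10, adjusted p = 0.000486 in limma). Its relative SLC25A33 was at 6.78 and 8.12 FPKM in WT and at 5.84 and 7.17 FPKM in TXNDC9-KO, and its groups overlapped. The S-adenosylmethionine carrier SLC25A26 had a log2 fold change of −0.72 and passed the adjusted p (0.00991 in limma) but not 2-fold. SLC25A32, linked to folate and FAD, and SLC25A51, the NAD carrier, had log2 fold changes of 0.35 and 0.37 and passed neither, and 87.9% of SLC25A32 in runs of 50 bases and 41.6% of SLC25A51 are shared with other annotated genes. SLC25A52, a close copy of SLC25A51, was listed at 0 in all 4 libraries.

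Of the 2 iron carriers, SLC25A28 (mitoferrin-2) fell and SLC25A37 (mitoferrin-1) was not called. SLC25A28 (ENSG00000155287, chr10:99610519-99622793, minus strand) was measured at 33.5 and 37.3 FPKM in WT and at 13.9 and 17.2 FPKM in TXNDC9-KO, means of 35.4 ± 2.67 and 15.6 ± 2.33 FPKM (SD, n = 2). Neither knockout value reached the wild-type range, and the change was −1.18 on the log2 scale (standard error 0.14, adjusted p = 0.00105 in limma with Benjamini-Hochberg adjustment). SLC25A37 was at 21.8 and 25.6 FPKM in WT and at 24.9 and 25.0 FPKM in TXNDC9-KO, and its groups overlapped.

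Among the 3 relatives of the uncoupling proteins, SLC25A30 (ENSG00000174032, chr13:45393316-45418455, minus strand) rose from 2.98 and 2.12 FPKM in WT to 5.39 and 6.18 FPKM in TXNDC9-KO, means of 2.55 ± 0.606 and 5.78 ± 0.553 FPKM (SD, n = 2). The groups were apart, by 1.17 on the log2 scale (standard error 0.20, adjusted p = 0.00377 in limma with Benjamini-Hochberg adjustment), 0.93 without wild-type replicate 2 and 0.94 with a pseudocount of 1, which both ended the call, as did fitting without the filter on low values (adjusted p = 0.0195 in limma). Its exons overlap those of SLC25A30-AS1 and TPT1-AS1 on the opposite strand. SLC25A14 averaged 16.9 ± 0.841 FPKM in WT and 11.7 ± 1.03 FPKM in TXNDC9-KO (SD, n = 2), passing the adjusted p (0.00861 in limma) at a log2 fold change of −0.52. SLC25A27, most studied in neurons, had a log2 fold change of 0.31 and was not called.

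Of the carnitine carrier and its relatives, only SLC25A20 and SLC25A45 had a mean above 1 FPKM, and neither was called. SLC25A20, which takes acylcarnitines into the matrix for fatty acid oxidation, was at 16.7 and 19.1 FPKM in WT and at 8.55 and 9.23 FPKM in TXNDC9-KO, with a log2 fold change of −0.998 (standard error 0.12, adjusted p = 0.00107 in limma with Benjamini-Hochberg adjustment). It lay on the 2-fold line itself and was called with a pseudocount of 0.01. SLC25A45 was at 4.27 and 4.93 FPKM in WT and at 3.68 and 5.02 FPKM in TXNDC9-KO. SLC25A47, known from liver, was near 0, at 0 and 0.0411 FPKM in WT and at 0.0214 and 0.0158 FPKM in TXNDC9-KO, and SLC25A48 was listed at 0. The outer membrane member SLC25A46, a partner of the fusion machinery, was at 17.7 and 18.3 FPKM in WT and at 32.4 and 33.1 FPKM in TXNDC9-KO, with a log2 fold change of 0.86 (adjusted p = 0.00091 in limma) short of 2-fold. SLC25A43 and SLC25A53 were not called, at log2 fold changes of −0.09 and 0.50.

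In all, 8 members were at or below a mean of 1 FPKM and were given as levels only. SLC25A2, SLC25A31, SLC25A48 and SLC25A52 were listed at 0 in all 4 libraries, and SLC25A18, SLC25A34, SLC25A41 and SLC25A47 had means from 0.0196 to 0.303 FPKM. None of the 40 tested members had a library under 1 FPKM. Exons of 23 members overlap those of another gene, 21 of them on the opposite strand, so reads may be shared where strand was not used. Beside the overlaps named above, SLC25A11 overlaps RNF167, SLC25A22 PANO1, SLC25A28 the divergent transcript SLC25A28-DT and SLC25A24 a pair of unnamed annotated genes, all on the opposite strand. RNF167 was itself at 143 and 186 FPKM in WT and at 84.2 and 89.5 FPKM in TXNDC9-KO. DBF4, opposite SLC25A40, was at 16.2 and 14.9 FPKM in WT and at 16.0 and 16.9 FPKM in TXNDC9-KO. TPT1-AS1, opposite SLC25A30, was at 3.47 and 3.66 FPKM against 2.88 and 2.58 FPKM. The higher of the unnamed genes opposite SLC25A24 was at 0.795 and 0.586 FPKM against 2.45 and 3.13 FPKM. The sharing of reads was not tested. Of 40 further lines for pseudogenes of the family, 34 were listed at 0 everywhere and 1 had a mean above 1 FPKM.

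A ratio of 2 paralogs in 1 library does not depend on how the libraries were scaled, so 8 pairs were compared in this way. The pairs were chosen with earlier results known, and the order of the genes in a pair sets the sign. In each pair the 2 knockout ratios lay apart from the 2 wild-type ratios, as did the FPKM values of 45.9% (lower) and 40.1% (higher) of all single genes. The share of other gene pairs whose ratios lie apart was not computed, so this count has no matching background. An exact two-sided permutation test of 2 against 2 cannot give a p below 0.333, which is the value in all 8 pairs and after Benjamini-Hochberg adjustment. The ratio of SLC25A39 to SLC25A40 was 121 on average in WT and 14.3 in TXNDC9-KO, a difference of −3.08 on the log2 scale, from log2 ratios of 6.42 and 7.41 in WT and 3.75 and 3.93 in TXNDC9-KO. The ratio of SLC25A33 to SLC25A36 moved by −2.20, from 0.528 to 0.115. The mitoferrin ratio, SLC25A28 to SLC25A37, moved by −1.26, from 1.49 to 0.622, so the mitoferrin with the higher FPKM changed from SLC25A28 to SLC25A37. With the correction for length and GC content given below, this difference was −0.11, so a change in which mitoferrin was more abundant is not shown. SLC25A23 and SLC25A25 changed against SLC25A24 by −1.05 and −1.003. Differences were smaller for SLC25A6 against SLC25A5 at −0.47, SLC25A4 against SLC25A5 at −0.39 and SLC25A12 against SLC25A13 at −0.30.

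**Figure D3:**
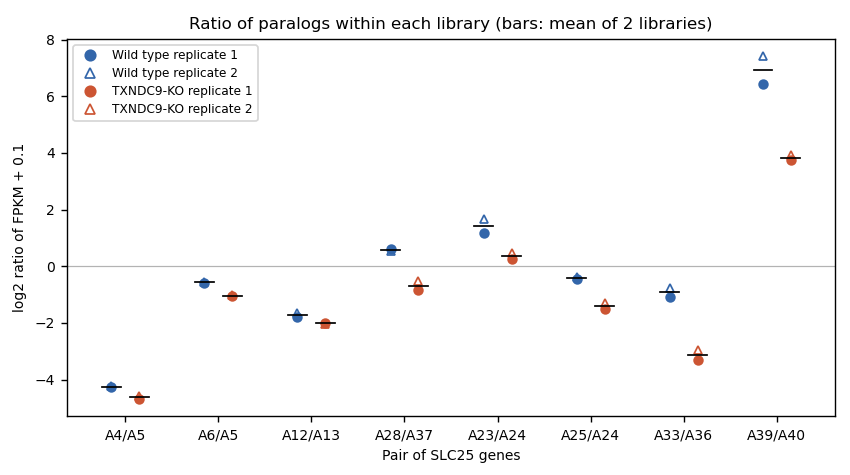
Log2 ratio of FPKM + 0.1 of 2 paralogs within a library (y axis) for 8 pairs (x axis), with wild-type points in blue, TXNDC9-KO points in orange and bars at the mean of 2 libraries. In every pair the orange points lie below the blue ones, farthest in SLC25A39 to SLC25A40, from a mean of 6.91 to 3.84.

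Called members were unlike in the length and GC content of their transcripts. The 5 lower genes had canonical transcripts of 1526 to 2640 nt with 58.5% to 65.3% GC, and the 5 higher genes had transcripts of 3663 to 6581 nt with 34.3% to 41.5% GC, so the groups did not overlap in either property. Spearman's rho between log2 fold change and length was 0.63 over the 40 members, which share their libraries, and −0.75 for GC content, beside 0.49 and −0.46 over 13112 genes. The log2 ratio of WT replicate 2 to replicate 1 had a rho of 0.34 with GC content over the members, and that of the knockout replicates 0.29. When each library was corrected for length and GC content by a loess curve over all genes, 2 members were lower and 1 higher in limma, against 7.39% and 6.41% of all genes, and 1 of the 10 calls was kept. SLC25A36 was that one, with a corrected log2 fold change of 1.13 (adjusted p = 0.00118 in limma with Benjamini-Hochberg adjustment). SLC25A40 was at 1.04 after the correction but short of the threshold (adjusted p = 0.0235 in limma), and SLC25A39 was at −0.40. SLC25A4 and SLC25A3, with canonical transcripts of 4415 and 5984 nt, were then called lower at −1.30 and −1.19. Their log2 fold changes were −0.91 and −0.49 in FPKM and −0.23 and 0.19 under TPM. The correction used canonical lengths, and the lengths behind the deposited FPKM values were not given in the sources used here. These 2 calls rest on the lengths assigned and are uncertain. The paralog difference of SLC25A39 to SLC25A40 became −1.44, that of SLC25A33 to SLC25A36 −1.66, that of the mitoferrins −0.11, and that of SLC25A6 to SLC25A5 changed sign to 0.04. SLC25A23 and SLC25A25 against SLC25A24 were then at −0.14 and −0.13, SLC25A4 against SLC25A5 at −1.19 and SLC25A12 against SLC25A13 at −0.53. After the correction the Spearman correlation over members was 0.11 with length and −0.22 with GC content. The part of length and GC content in the differences between the genotypes was not tested beyond these values.

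**Figure D4:**
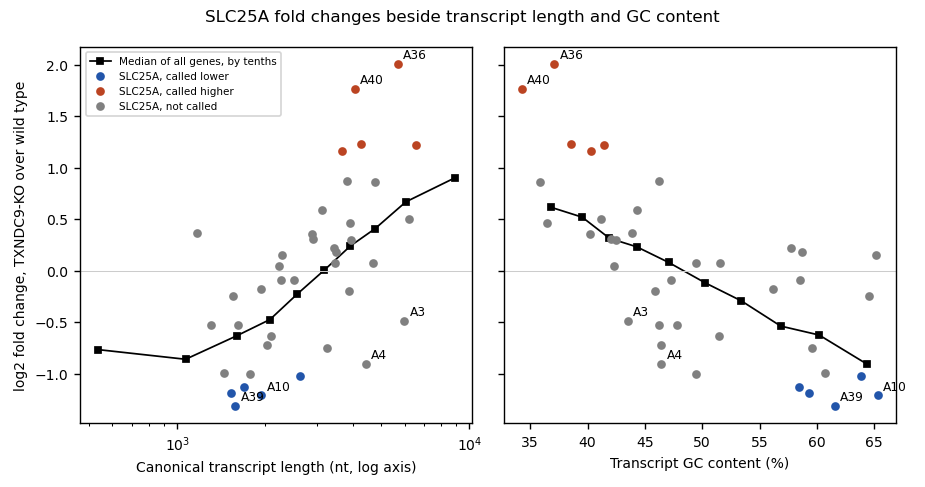
Log2 fold change of TXNDC9-KO over wild type (y axis) against canonical transcript length in nt (left, log axis) and GC content in percent (right) for 39 of the 40 SLC25A genes, with the median over all genes in 10 equal groups of each property as a black line. The medians run from −0.77 in the shortest genes to 0.90 in the longest and from 0.62 at the lowest GC content to −0.91 at the highest, and the members called lower lie at shorter lengths and higher GC content than those called higher.

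Library scaling moved the calls as well. The summed FPKM of a library was 805816 and 971102 in WT and 535973 and 568279 in TXNDC9-KO. Rescaled to TPM, 0 members were lower and 12 higher in limma, against 3.37% and 33.1% of all genes, and 5 of the 10 calls were kept, all of them rises. The median of all genes moved by 0.67 on the log2 scale under TPM, and 9 members with a negative fold change in FPKM had a positive one. SLC25A39 stayed negative at −0.63, SLC25A10 at −0.53, SLC25A28 at −0.51, SLC25A11 at −0.45 and SLC25A22 at −0.35. At unadjusted p under 0.05, 32 of the 40 members passed in limma under TPM, beside 72.4% of all genes.

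**Figure D5:**
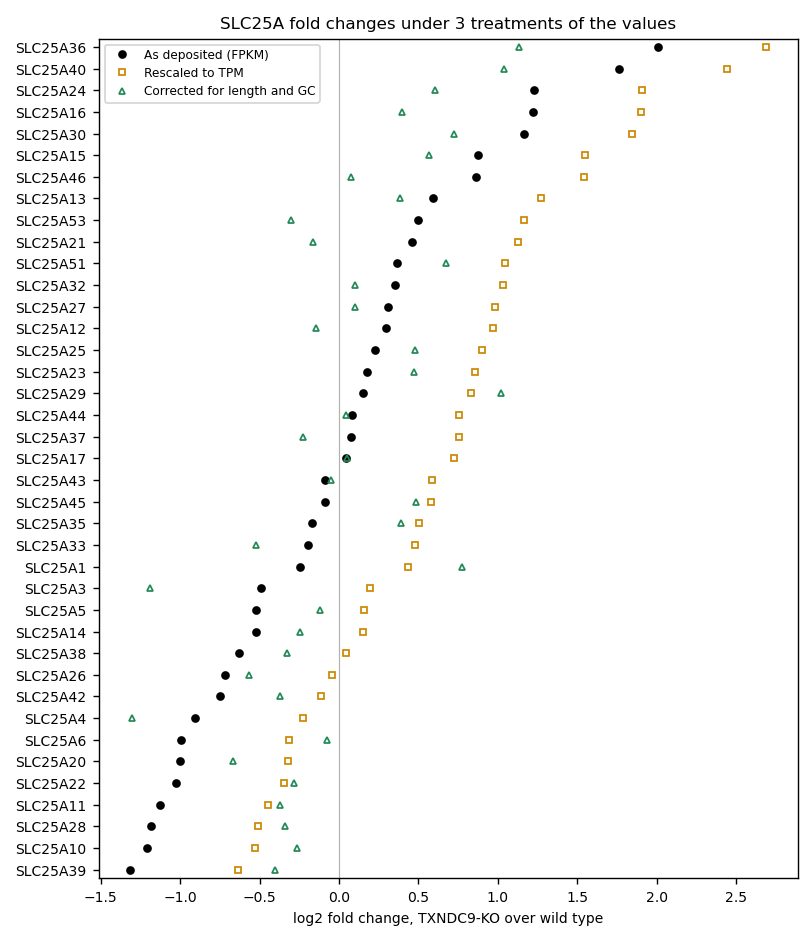
Log2 fold change of TXNDC9-KO over wild type (x axis) of 39 of the 40 SLC25A genes (y axis) from FPKM as deposited (black circles), after rescaling to TPM (squares) and after correction for length and GC content (triangles). SLC25A36 is above 1 in all 3 treatments, at 2.01, 2.69 and 1.13, and the 5 genes called lower are between 0 and −1 in both other treatments.

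Genes that work beside the carriers were read from lists of related pathways, with the same background of 15.3% of all genes called lower and 14.2% higher. Of 3 tested proteins of the carrier fold named outside the SLC25A symbols, none was called, and UCP2 and MTCH2 had log2 fold changes of −0.88 and −0.77. Among 21 other inner membrane carriers and channels, MCUR1, a regulator of the calcium uniporter, fell by 1.03 on the log2 scale, and the magnesium channel MRS2 was at 0.81 and not called. The 3 voltage-dependent anion channels of the outer membrane were not called, with VDAC2 at −0.62 and VDAC1 at −0.42. Of 5 ATP synthase F1 subunits, ATP5D and ATP5E fell, with log2 fold changes of −1.72 and −1.38. Of 24 enzymes on either side of the carriers, 2 fell and 5 rose, among them GPD2, the mitochondrial glycerol-3-phosphate dehydrogenase, with a log2 fold change of 1.71. GPD2 was at 5.57 and 5.48 FPKM in WT and at 18.2 and 18.5 FPKM in TXNDC9-KO, and its groups did not overlap. After the correction for length and GC content ATP5D (−0.73) and GPD2 (0.90) were no longer called, while ATP5E (−1.88) and MCUR1 (−1.64) were still called lower. The corrected values of ATP5E and MCUR1 rest on canonical lengths of 3610 and 5460 nt. Whether the deposited FPKM values used such lengths is unknown, so these 2 calls are uncertain. Under TPM the change of MCUR1 was −0.35, that of ATP5E −0.70, that of ATP5D −1.04 and that of GPD2 2.39. VDAC2 and VDAC1 were then positive at 0.06 and 0.26, UCP2 and MTCH2 were at −0.22 and −0.09, and MRS2 was at 1.49.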

How the data were processed

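Polyadenylated RNA was sequenced in 2 WT and 2 TXNDC9-KO libraries. Per the submitters' processing notes the authors used TopHat2 on hg38, and the FPKM values they deposited came from Cuffdiff of Cufflinks. Versions, library normalization and use of strand were not given in the sources used here. Depth is unknown, since FPKM values hold no counts, so no intervals or floors are given. The authors' averages, fold changes, p-values and q-values were deposited too and not used. Identifiers stood on other lines than their symbols, each of them 4 times among 231916 lines, and were put back in order of first appearance.

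Genes with a mean above 1 FPKM (13246) entered limma 3.58.1 (R 4.3.3) as log2(FPKM + 0.1), with the prior variance following mean level and p-values adjusted over all of them by Benjamini-Hochberg. Fold changes on this scale understate those of low genes. Calls needed an adjusted p under 0.01 and at least 2-fold. The fit and the correction were tried on simulated data with 200 of 13246 genes changed at random, and the fit recovered 100% with 0 false calls. With a trend in length added, false calls were 1011 without the correction and 0 with it. The simulation had no trend in GC content and far fewer changed genes than were called here, so it cannot show that the correction suits these data. Positions, lengths (canonical transcripts), GC content and overlaps came from GENCODE release 44, which named 48 of the 48 members alike. Named genes are all SLC25A symbols, TXNDC9 and the 2 tested members of each other list with the largest change, and markers and genes that share or overlap the sequence of called members are named too. Some of the named genes, 1 tested member among them, are not reported here by name, though the counts include them. Members and lists were chosen with earlier results of these data known. The main fit did not pair libraries by replicate number. Deviations from group means over 13246 genes had r = −0.0904 between WT replicate 1 and TXNDC9-KO replicate 1. With 2 libraries per genotype, this value cannot exclude pairing or a shared batch. The alternatives tried were pseudocounts of 1 and 0.01, no filter (limited to the 26435 genes above 0 in a library), a mean above 5 FPKM, TPM, median-centring, no trend, an adjusted p under 0.05, the replicate block, each library left out, and a loess correction (span 0.3) for length and GC content over 13112 genes. Other steps ran in Python 3.11.15 with scipy 1.17.1, numpy 2.4.6, pandas 2.3.3 and matplotlib 3.10.9.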

Additional observations from a re-analysis of the deposited data

How the results depend on the processing

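Pseudocount, trend, an adjusted p under 0.05 and the replicate block left 4 to 6 members lower and 4 or 5 higher. Of all 13246 genes, 1798 to 2207 were lower and 1512 to 2040 higher in these fits. Under the replicate block the counts were 5 and 5, with all 10 calls shared, and the paralog ratios had no paired test with 2 pairs. Rescaling to TPM gave 0 lower and 12 higher members (447 and 4380 of all genes), and median-centring 8 lower (2601 of all 13246 genes). With no filter, 3 of 44 members were higher, beside 1581 of 26435 genes. The correction for length and GC content gave 2 lower and 1 higher (969 and 841 of all genes), or 2 and 3 (975 and 841) with the replicate block. A mean above 5 FPKM left 1220 genes higher of the 9593 then tested, and 4 of 35 members. The median fold change of members was −0.090 with no filter or a mean above 5 FPKM, 0.65 under TPM, −0.17 centred and −0.063 corrected, with or without the block. With a library left out, members called lower ranged from 0 to 7 and higher from 0 to 6, all genes from 0 to 2633 and 0 to 2136, the median from −0.10 to 0.10 and TXNDC9 from −0.72 to −0.39. The cause of these moves was not tested.

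Signs changed under TPM for TXNDC9 (0.12), SLC25A5 (0.16), SLC25A38 (0.046), SLC25A45 (0.58), SLC25A33 (0.48), SLC25A1 (0.43), SLC25A35 (0.50), SLC25A43 (0.58), SLC25A3 (0.19) and SLC25A14 (0.15). With the correction, with or without the block, they changed for SLC25A12 (−0.14), SLC25A45 (0.48), SLC25A1 (0.77), SLC25A35 (0.39), SLC25A21 (−0.16), SLC25A37 (−0.23) and SLC25A53 (−0.30), and for the ratio of SLC25A6 to SLC25A5 (0.042). Median-centring changed SLC25A44 (−0.063), SLC25A37 (−0.065) and SLC25A17 (−0.10). With a library left out, SLC25A17 ranged from −0.11 to 0.21, SLC25A29 from −0.12 to 0.42, SLC25A37 from −0.038 to 0.19, SLC25A44 from −0.063 to 0.22 and SLC25A45 from −0.31 to 0.13. Of these, only SLC25A38 and SLC25A14 had passed the adjusted p in FPKM. Depth is unknown, so whether the 8 members at or below 1 FPKM were detectable cannot be said.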
